A study of Mus musculus with 9 samples.

Results

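Ccr7, Cd83, Cd86, Cd80, Cd40, Relb, Itgax, Ly75 and Cd209a, 9 genes of dendritic cell maturation and T cell costimulation, were followed in cultured mouse LSK cells after deletion of Drosha or Dicer1. They were chosen by gene name, and each was read from the probe with the highest mean over the 9 columns of the authors' log2 series values. The 9 genes stood on 12 probes of the 55681 on the array, and were 9 of 36315 genes or regions with a probe. A gene was tested when, in at least 1 group, its probe was called well above background on all 3 arrays, which held for 22991 genes or regions and for 8 of the 9 genes, all but Ly75.

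LSK cells are the lineage-negative, Sca1-positive, cKit-positive fraction of bone marrow that is enriched in blood stem cells. The Drosha-deleted cells came from Drosha fl/fl Gt(ROSA)26Sor CreERT2 mice, the Dicer-deleted cells from Dicer fl/fl Gt(ROSA)26Sor CreERT2 mice, and the control cells from Gt(ROSA)26Sor CreERT2 mice, with 3 repeats per group and all mice female. Every group, controls included, carried the tamoxifen-inducible Cre at the broadly active Rosa26 locus and was kept for 72 h in 250 nM 4OH-tamoxifen with IL-3 and IL-6 (10 ng/mL each), stem cell factor (50 ng/mL) and 10% serum. The labels do not say that repeats came from separate animals, so p-values reflect spread among these samples only. The sources used here do not give the ages of the mice.

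Dendritic cells take up antigen in tissues and, once they sense microbes or inflammatory cytokines, mature: they move to lymph nodes and display ligands that let T cells respond. Ccr7 encodes the chemokine receptor that guides this migration along Ccl19 and Ccl21, Cd80 and Cd86 encode the ligands of Cd28 and Ctla4 on T cells, and Cd40 encodes the receptor for Cd40 ligand. Cd83 is a surface marker of mature dendritic cells that keeps MHC class II and Cd86 at the cell surface, and Relb is a subunit of NF-kappaB that acts in the alternative pathway. Itgax encodes CD11c, the integrin alpha chain by which mouse dendritic cells are commonly recognised, while Ly75 (DEC-205) and Cd209a (a mouse relative of human DC-SIGN) are endocytic lectin receptors of dendritic cells.

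Before the members, the samples and columns were checked. Drosha stood at 8.81 to 9.32 in Drosha-deleted cells, against 11.94 to 12.16 in Dicer-deleted and 11.85 to 12.04 in control cells, and fell against controls (adjusted p = 0.000153). Dicer1 stood at 8.97 to 9.18 in Dicer-deleted cells, 10.00 to 10.80 in Drosha-deleted and 9.92 to 10.50 in control cells (adjusted p = 0.118 for Dicer-deleted against control). The stem and progenitor markers Kit, Ly6a and Cd34 were well above background on all 9 arrays, and so were 16 of 18 dendritic cell lineage markers and 8 of 8 neutrophil markers. The control columns did not form 1 cluster: the columns of control replicates 2 and 3 correlated at 0.991 with each other over all probes and at 0.978 to 0.986 with the other 7, which correlated at 0.988 to 0.994 among themselves. The authors' column for control replicate 2 correlated at 0.77 with its own scanner file and at 0.974 with that of control replicate 3, whereas the other columns correlated with their own files at 0.974 to 0.985. In its scanner file, 93.2% of spots of control replicate 2 were called well above background, with 18.9% of spots nonuniform and a median signal of 528.8, against 54.2% to 62.3% and median signals of 31.0 to 53.8 on the other 8 arrays. In all 20 listed genes with 1 control array well above background, that array was control replicate 2. Control replicate 3 was alone on its slide. The cause of these patterns was not tested. Printed differences of tested genes from control are repeated without control replicates 2 and 3 where they turn in sign or move over 1.5 times. They then rest on control replicate 1 alone, with the spread taken from the deleted groups. Where only group means or ranges are printed, all columns were used, and some of those contrasts turn or move by as much.

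None of the 8 tested members passed limma's adjusted threshold of 0.05 in any comparison, and the members differed in which groups stood apart. Against control the count was 0 of 8 in Drosha-deleted cells, where 0.17% of all genes were called, and 0 of 8 in Dicer-deleted cells (0.0174% of all genes), while 0 of 8 passed between the deletions (0.0565%) and 0 of 8 in the F test of any difference among the 3 groups (0.0913%). At an unadjusted p under 0.05, Cd86 was lower in Drosha-deleted than in control cells, 1 member of 8, where 11.5% of all genes were lower by that measure. By the same measure Ccr7, Cd83, Cd86 and Itgax were lower in Dicer-deleted than in control cells, 4 of 8 against 9.11% of all genes, and Ccr7, Cd83, Itgax and Cd209a were higher in Drosha-deleted than in Dicer-deleted cells, 4 of 8 against 3.24%. All 3 comparisons rest on the same 9 columns, so they are not independent of each other.

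With all columns, all 8 tested members had a lower mean in Dicer-deleted than in control cells, where 50.2% of all genes did, and their median difference was −0.57 log2 units against −0.002 over all genes. Without control replicates 2 and 3, 6 of the 8 were lower, Relb (0.19) and Cd209a (0.08) were higher, and the median was −0.44 against 0.014 over all genes. Ly75, which was not tested, had a higher mean in Dicer-deleted than in control cells, by 0.34. For Drosha-deleted against control, 3 members were higher and 5 lower, with a median of −0.06 against −0.002 over all genes, and without control replicates 2 and 3 it was 4 and 4, with a median of 0.09 against 0.004. Between the deletions, 7 of 8 members were higher in Drosha-deleted than in Dicer-deleted cells, all but Cd80, with a median of 0.72 against 0.003 over all genes. In RNA from whole cultures, fewer cells of a type and less RNA per cell cannot be told apart.

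**Figure D1:**
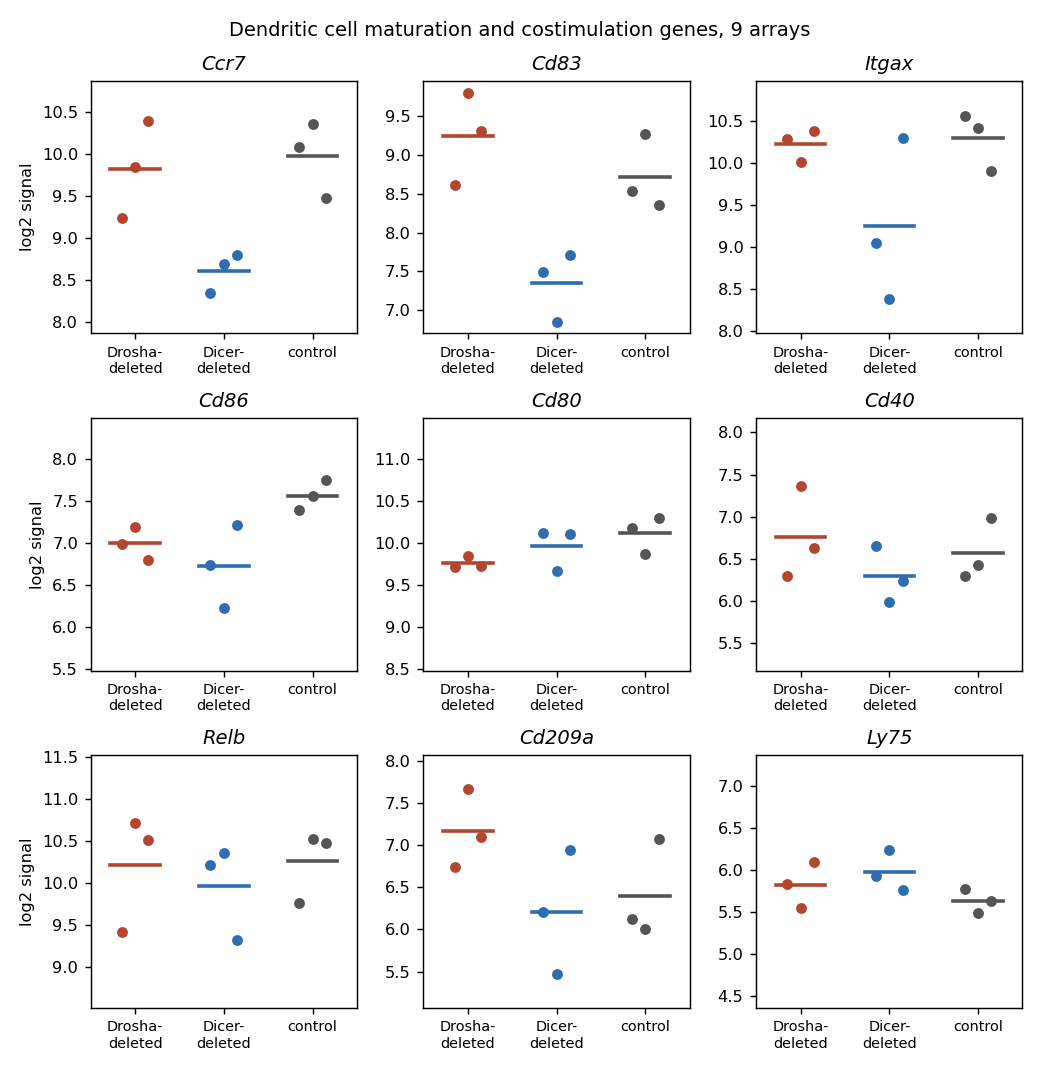
Log2 signal of the 9 genes in the authors' series values (vertical axes, each spanning its own range) for the 3 Drosha-deleted, 3 Dicer-deleted and 3 control samples, with points in replicate order and bars for group means. The Ccr7 and Cd83 points of Dicer-deleted cells lie below all points of both other groups, while the groups of Relb and Cd40 overlap.

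Ccr7 was lower in every Dicer-deleted sample than in any other sample. It read 9.24, 9.84 and 10.39 in Drosha-deleted cells, 8.34, 8.69 and 8.80 in Dicer-deleted cells, and 10.08, 10.36 and 9.47 in control cells (log2 signal, replicates 1 to 3; probe at mm9 chromosome 11, 99005551 to 99005610). The Dicer-deleted mean of 8.61 ± 0.24 was lower than the control mean of 9.97 ± 0.46 (SD, n = 3 each) by a difference of −1.36 (SE 0.31, 95% interval −2.07 to −0.65), 2.57-fold, with an unadjusted p of 0.00188 and an adjusted p of 0.139 in limma. The Drosha-deleted and control groups overlapped, with a difference of −0.15 (95% interval −0.86 to 0.56), and −0.26 without control replicates 2 and 3. Against Dicer-deleted cells, the Drosha-deleted mean was higher by 1.21 (SE 0.31), 2.31-fold, with adjusted p = 0.425. Groups that did not overlap were found for 3 of the 8 members in Dicer-deleted below control, namely Ccr7, Cd83 and Cd86, where 9.94% of all genes showed this, and for 2, namely Ccr7 and Cd83, in Drosha-deleted above Dicer-deleted, where 8.61% did.

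The chemokines that Ccr7 binds were read next. Of 4 ligand and scavenger genes with a probe, 3 were tested and none passed the adjusted threshold in any comparison. Ccl19 averaged 7.99 ± 0.19 in Drosha-deleted, 7.82 ± 0.30 in Dicer-deleted and 7.52 ± 0.25 in control cells (SD, n = 3 each). Ccl21a differed from control by 0.11 with Drosha deleted and by 0.02 with Dicer1 deleted. Ccl21b read 14.48 to 14.74 in all 6 deleted samples and 14.68 in control replicate 1, but 12.45 and 12.78 in control replicates 2 and 3, so its differences of 1.35 and 1.25 from control were −0.02 and −0.13 without those columns. Without them Ccl21a differed by 0.37 and 0.27. Ackr4, a scavenger receptor of these chemokines, was well above background on control replicate 2 alone. The mouse genome holds near-identical copies of the Ccl21 gene, and copies related to Ccl19, and cross-hybridisation of their probes was not tested.

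Cd83 had the widest gap between the deletions among the members. It read 8.61, 9.80 and 9.30 in Drosha-deleted cells, 7.49, 6.85 and 7.71 in Dicer-deleted cells, and 8.54, 9.27 and 8.35 in control cells (mm9 chromosome 13, 43898276 to 43898335). All Dicer-deleted samples lay below all others, and the Drosha-deleted and control samples overlapped. The Drosha-deleted mean of 9.24 ± 0.60 exceeded the Dicer-deleted mean of 7.35 ± 0.45 (SD, n = 3 each) by 1.88 (SE 0.36, 95% interval 1.08 to 2.69), 3.69-fold, with an unadjusted p of 0.000512 and an adjusted p of 0.209. The Dicer-deleted mean was below the control mean by a difference of −1.37 (95% interval −2.17 to −0.56), 2.58-fold, with adjusted p = 0.150. Drosha-deleted cells differed from control by 0.52 (95% interval −0.29 to 1.33).

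In the authors' series values, Cd86 was lower in every sample of both deletions than in every control sample. It read 6.99, 7.19 and 6.80 in Drosha-deleted cells, 6.74, 6.22 and 7.21 in Dicer-deleted cells, and 7.39, 7.55 and 7.74 in control cells (mm9 chromosome 16, 36603961 to 36604020). The deletions overlapped each other. All Drosha-deleted samples lay below all controls for 10.5% of all genes, and all Dicer-deleted samples for 9.94%. The share of genes with both was not counted. The difference from control was −0.57 (SE 0.24, adjusted p = 0.168) for Drosha-deleted and −0.84 (SE 0.24, adjusted p = 0.161) for Dicer-deleted cells, 1.48-fold and 1.79-fold. Between the deletions the difference was 0.27, with a 95% interval of −0.26 to 0.80. The separation from control was lost in the scanner values (log2 processed signal with each array's 75th percentile subtracted), through control replicate 2 alone. Cd86 then read −2.97, −2.64 and −3.14 in Drosha-deleted cells, −3.21, −4.29 and −2.55 in Dicer-deleted cells, and −2.29, −3.33 and −2.28 in control cells. Control replicates 1 and 3 still lay above every deleted sample. Without control replicate 2, the scanner difference from control was −0.63 after Drosha deletion (adjusted p = 0.518). After Dicer1 deletion it was −1.06 (adjusted p = 0.487).

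Cd80, the other ligand of Cd28, varied little. It read 9.72, 9.85 and 9.73 in Drosha-deleted cells, 10.12, 9.67 and 10.11 in Dicer-deleted cells, and 10.18, 9.87 and 10.30 in control cells (mm9 chromosome 16, 38486772 to 38486831). The Drosha-deleted samples lay just below the controls, by a mean difference of −0.35 (SE 0.16, adjusted p = 0.207), and the Dicer-deleted and control groups overlapped (−0.15, 95% interval −0.52 to 0.22). Cd86 and Cd80 were the 2 members of 8 whose Drosha-deleted samples all lay below all controls, which held for 10.5% of all genes. A second Cd80 probe read another stretch of the gene and gave little signal. It was well above background on 3 of 9 arrays, read 5.59 to 6.66, and correlated with the probe used at −0.26 over the 9 columns. It is shown because the reading of Cd80 depended on the probe, as 60 bases at mm9 chr16:38479343-38479402 on the + strand:
Cd80 second probe: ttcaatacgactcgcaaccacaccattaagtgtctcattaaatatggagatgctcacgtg

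Cd40, which receives the T cell signal, had overlapping groups throughout. It read 6.29, 7.36 and 6.63 in Drosha-deleted cells, 6.65, 5.98 and 6.24 in Dicer-deleted cells, and 6.30, 6.42 and 6.98 in control cells (mm9 chromosome 2, 164897085 to 164897144), and was not well above background on Dicer-deleted replicate 2. Its differences from control were 0.19 (95% interval −0.49 to 0.88) in Drosha-deleted and −0.28 (95% interval −0.96 to 0.40) in Dicer-deleted cells, and 0.46 and −0.01 without control replicates 2 and 3.

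Other costimulatory and inhibitory ligands were looked at beside these receptors and ligands. None of the 10 tested of 12 listed passed the adjusted threshold in any comparison, and their median differences from control were −0.10 with Drosha deleted and −0.15 with Dicer1 deleted (−0.07 and 0.0 without control replicates 2 and 3), and −0.03 between the deletions. Pdcd1lg2, which encodes the PD-1 ligand PD-L2, averaged 9.66 ± 0.35 in Drosha-deleted, 8.54 ± 0.42 in Dicer-deleted and 9.38 ± 0.12 in control cells (SD, n = 3 each), a Dicer-deleted difference from control of −0.84 (adjusted p = 0.162). Icosl, the ligand of Icos, read 10.06 to 10.44 in Drosha-deleted, 9.49 to 9.71 in Dicer-deleted and 9.72 to 10.09 in control cells. Tnfsf4, which encodes OX40 ligand, had means of 7.02, 7.36 and 8.06 in Drosha-deleted, Dicer-deleted and control cells, with a Drosha-deleted difference from control of −1.04 (adjusted p = 0.115), which was −0.33 without control replicates 2 and 3. Cd276, a B7 family member, had means of 5.81, 6.43 and 6.33 in the same order and was well above background on 1 Drosha-deleted array. Its Drosha-deleted difference from control was −0.52 with all columns and −0.18 without control replicates 2 and 3, and its Dicer-deleted difference 0.09 and 0.43. Of 6 listed genes of T cell surface proteins 3 were tested. Cd5, a T cell surface protein that dampens signalling, had means of 7.15, 7.32 and 6.80 in Drosha-deleted, Dicer-deleted and control cells. Its Drosha-deleted and Dicer-deleted differences from control were 0.35 and 0.52, and 0.12 and 0.29 without control replicates 2 and 3. Icos, the receptor of Icosl, read 6.45 to 6.83 in Drosha-deleted, 6.83 to 9.19 in Dicer-deleted and 6.92 to 8.69 in control cells. Its Drosha-deleted difference from control was −1.18 (adjusted p = 0.228) with all columns and −0.27 without control replicates 2 and 3. Cd28 had means of 8.84, 8.46 and 8.82 in the same order. It differed from control by 0.02 with Drosha deleted and −0.36 with Dicer1 deleted, and without control replicates 2 and 3 by 0.42 and 0.04. Ctla4 was well above background on control replicate 2 alone.

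Relb had overlapping groups. It read 9.42, 10.72 and 10.51 in Drosha-deleted cells, 10.22, 10.36 and 9.32 in Dicer-deleted cells, and 9.77, 10.53 and 10.48 in control cells (mm9 chromosome 7, 20191722 to 20191781), so each group held 1 sample clearly below the other 2. A second Relb probe, which overlaps the first on the genome, followed it with a correlation of 1.0 and showed the same low sample in each group. The differences were −0.04 (95% interval −0.93 to 0.85) for Drosha-deleted and −0.29 (95% interval −1.18 to 0.60) for Dicer-deleted against control, and 0.44 and 0.19 without control replicates 2 and 3. Of the rest of the NF-kappaB pathway, none of the 18 genes passed the adjusted threshold, with medians of 0.13, −0.01 and −0.03 in the 3 comparisons, and of 0.04 and 0.08 for Drosha-deleted and Dicer-deleted against control without control replicates 2 and 3. Bcl3, an atypical inhibitor protein that binds NF-kappaB subunits in the nucleus, had means of 12.87, 12.25 and 12.59 in Drosha-deleted, Dicer-deleted and control cells, and Ikbkg, the regulatory subunit of the kinase that activates the pathway, had means of 8.23, 7.96 and 8.45. Against control replicate 1 alone, Bcl3 differed by 0.05 and −0.57 in Drosha-deleted and Dicer-deleted cells, and Ikbkg by −0.01 and −0.29, where with all columns the differences were 0.28 and −0.34 for Bcl3 and −0.21 and −0.49 for Ikbkg.

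Itgax split the Dicer-deleted samples. It read 10.29, 10.01 and 10.38 in Drosha-deleted cells, 9.05, 8.39 and 10.30 in Dicer-deleted cells, and 10.56, 10.42 and 9.91 in control cells (mm9 chromosome 7, 135294052 to 135294111). Dicer-deleted replicates 1 and 2 lay below all other samples, while replicate 3 lay among them. The Dicer-deleted difference from control was −1.05 (SE 0.41, 95% interval −1.98 to −0.11), 2.07-fold, with adjusted p = 0.199, and it was −0.62 without Dicer-deleted replicate 2 and −1.57 without Dicer-deleted replicate 3. Drosha-deleted cells differed from control by −0.07 (95% interval −1.01 to 0.86), and by −0.33 without control replicates 2 and 3. With all columns the 3 other integrin genes tested had higher means in both deletions than in control, and none passed the adjusted threshold, but this was lost without control replicates 2 and 3, where 2 of 3 were lower in each deletion. Itgb2, the beta chain that pairs with CD11c, differed from control by 0.42 with Drosha deleted and by 0.08 with Dicer1 deleted, and without those columns by −0.16 and −0.50. Itgal, the alpha chain of LFA-1, differed by 0.08 and 0.41, and without those columns by −0.34 and −0.01. Itgam, which encodes CD11b, differed by 0.72 and 0.70 (adjusted p = 0.144 and 0.194), with 13.86 and 13.83 in control replicates 2 and 3 against 14.52 to 15.30 in the other 7 samples, and by 0.14 and 0.13 without those columns. Itgad was well above background on control replicate 2 alone.

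The reference table of promoters (RefSeq, GRCm38.p6) held 4 members, namely Ly75, Itgax, Cd209a and Cd80. In windows of 250 bases before to 50 after the start site, 3 motifs were searched on both strands. The kappaB letters GGGANTTTC matched 0 of the 4 member promoters and 1.11% of 32851 promoters, the PU.1 core GAGGAA 0 of 4 and 28.3%, and the AP-1 letters TGANTCA 2 of 4 and 7.81%, and no match overlapped another motif. Both AP-1 matches are shown, since AP-1, made of Fos and Jun proteins, is a transcription factor of stimulated myeloid cells, and Itgax and Cd80 are members with different patterns (r = 0.19 over the 9 columns). The runs give the 250 bases before the start site, 5′ to 3′ on the + strand, at chr7:128129300-128129549 for Itgax and chr16:38458683-38458932 for Cd80, with the AP-1 match in capitals. Its first base lies at −56 in Itgax and at −42 in Cd80, counted from the start site.
Itgax: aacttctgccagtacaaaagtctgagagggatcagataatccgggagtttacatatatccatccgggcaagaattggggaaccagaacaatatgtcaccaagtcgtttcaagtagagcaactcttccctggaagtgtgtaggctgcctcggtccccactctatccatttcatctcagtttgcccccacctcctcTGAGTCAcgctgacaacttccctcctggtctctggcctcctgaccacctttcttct
Cd80: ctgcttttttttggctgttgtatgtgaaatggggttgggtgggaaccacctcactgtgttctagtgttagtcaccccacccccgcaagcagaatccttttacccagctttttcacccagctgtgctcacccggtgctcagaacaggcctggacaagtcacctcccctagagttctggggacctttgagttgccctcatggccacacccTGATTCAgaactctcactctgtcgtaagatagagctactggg

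Cd209a was highest in Drosha-deleted cells, with overlapping groups. It read 6.74, 7.67 and 7.10 in Drosha-deleted cells, 6.21, 5.47 and 6.94 in Dicer-deleted cells, and 6.13, 6.0 and 7.08 in control cells (mm9 chromosome 8, 3743481 to 3743540), and was not well above background on Dicer-deleted replicate 2. The difference was 0.77 (SE 0.42, adjusted p = 0.261) for Drosha-deleted against control and 0.96 (adjusted p = 0.870) for Drosha-deleted against Dicer-deleted cells. A second probe was well above background on 1 array. Ly75 was not tested, being well above background on 2 Drosha-deleted, 1 Dicer-deleted and 1 control array. It read 5.83, 5.55 and 6.09 in Drosha-deleted cells, 5.93, 6.23 and 5.76 in Dicer-deleted cells, and 5.77, 5.49 and 5.63 in control cells (mm9 chromosome 2, 60186411 to 60186470).

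Among the other Cd209 genes, which lie near Cd209a on chromosome 8, Cd209e had its highest readings in Drosha-deleted cells. It read 6.90, 7.83 and 7.16 in Drosha-deleted cells, 5.58, 5.39 and 5.52 in Dicer-deleted cells, and 5.30, 5.78 and 5.87 in control cells (mm9 chromosome 8, 3848016 to 3848075). It was well above background on 3 Drosha-deleted arrays, no Dicer-deleted array and 1 control array, that of control replicate 2, so it was tested only through the group in which it was high, and its level in the other groups is close to background. The fitted difference from control was 1.64 (SE 0.24, adjusted p = 0.0491), and 1.99 without control replicates 2 and 3 (adjusted p = 0.206). Against Dicer-deleted cells it was at least 3.25-fold higher, with adjusted p = 0.0610. The call against control was kept in 3 of 22 alternative settings (array quality weights, limma-trend and control replicate 1 left out). Those 3 settings called 50.6%, 0.178% and 33.7% of all genes in this comparison. Over the 22 settings the adjusted p in limma lay between 0.00122 and 0.520, and in 21 of them the unadjusted p was under 0.05. Cd209d read 8.08 to 8.89 in Drosha-deleted, 7.91 to 8.64 in Dicer-deleted and 7.36 to 7.74 in control cells, a difference of 0.98 (adjusted p = 0.0974) and 0.82 (adjusted p = 0.165) from control. The remaining 4, Cd209b, Cd209c, Cd209f and Cd209g, were not tested, being too dim, and read 4.92 to 7.02 over all samples. The family arose by duplication, and cross-hybridisation between its probes was not tested.

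**Figure D2:**
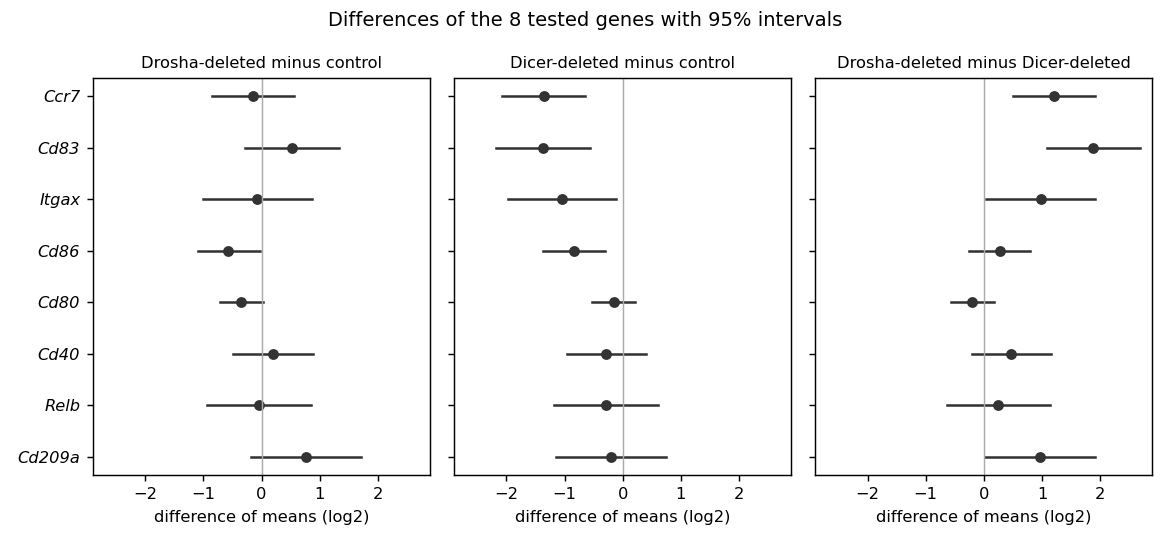
Difference of group means on the log2 scale (horizontal axis) for the 8 tested genes in the 3 comparisons, with points for the estimate and lines for 95% intervals from limma before adjustment. For Dicer-deleted minus control all 8 points lie below 0, and the intervals of Ccr7, Cd83, Itgax and Cd86 do not reach 0.

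The difference between Dicer-deleted and control cells was recomputed with columns left out, since control columns 2 and 3 stood apart. Without both of them, the control arm is replicate 1 alone, taken to vary like the deleted groups. Ccr7 then differed by −1.47, Cd83 by −1.18, Itgax by −1.31 and Cd86 by −0.66. With control replicate 1 left out instead, Ccr7 (−1.30, adjusted p = 0.0310), Cd83 (−1.46, adjusted p = 0.0329) and Cd86 (−0.93, adjusted p = 0.0329) passed limma's adjusted threshold, 3 of 8 where 30.5% of all genes did. With array quality weights, which gave control replicate 1 the lowest weight, 0.15, Ccr7, Cd83, Cd86 and Itgax passed, 4 of 8 where 43.6% of all genes did. The scanner files give a second reading of the same arrays, here as log2 processed signal with each array's 75th percentile subtracted. Ccr7 then read −0.17, 0.52 and 1.01 in Drosha-deleted cells, −1.02, −0.70 and −0.58 in Dicer-deleted cells, and 0.73, 1.48 and 0.24 in control cells. Cd83 read −0.93, 0.34 and −0.15 in Drosha-deleted cells, −2.23, −3.05 and −1.90 in Dicer-deleted cells, and −1.02, 0.04 and −1.47 in control cells. In these values the Dicer-deleted samples lay below all others for both genes, and the share of all genes for which this held was not counted. Without control replicate 2 their differences from control were −1.25 for Ccr7 and −1.15 for Cd83, with adjusted p of 0.388 and 0.462. Over the 22 alternatives the difference stayed between −1.61 and −1.16 for Ccr7, −1.58 and −1.09 for Cd83, −1.57 and −0.62 for Itgax, and −1.08 and −0.19 for Cd86, where the last end came from scanner values corrected by normexp. Whether Ccr7, Cd83 and Cd86 passed depended on which control columns were used and on their weights.

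**Figure D3:**
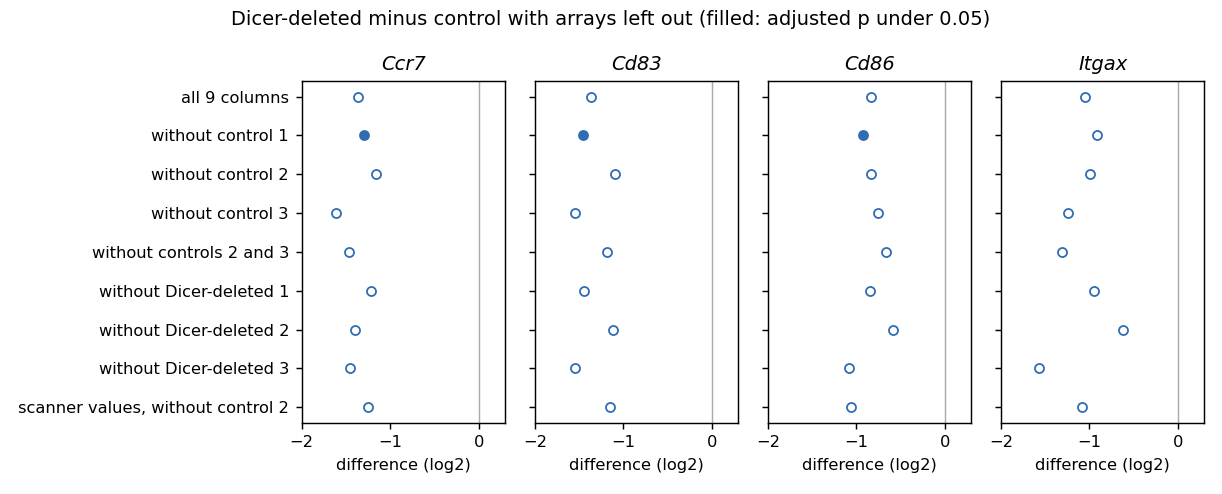
Difference of means, Dicer-deleted minus control, on the log2 scale (horizontal axis) for Ccr7, Cd83, Cd86 and Itgax with columns left out as named at the left, filled where the adjusted p was under 0.05. All points lie below 0, and filled points appear only without control replicate 1, for Ccr7, Cd83 and Cd86.

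For Drosha-deleted against Dicer-deleted cells, whose means use no control column, Cd83 differed by 1.60 to 2.20 and Ccr7 by 0.93 to 1.50 over the 22 alternatives, with adjusted p of at least 0.0743 and 0.131. The Drosha-deleted difference of Cd86 from control was −0.57 with all columns, −0.39 without control replicates 2 and 3 and −0.66 without control replicate 1, and passed with array quality weights (−0.63, adjusted p = 0.0197), as did Cd80 (−0.40, adjusted p = 0.0488), 2 of 8 members where 50.6% of all genes did.

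Genes of the wider dendritic cell maturation response, 19 tested of 20 listed, had median differences from control of −0.02 in Drosha-deleted cells and −0.35 in Dicer-deleted cells, and 0.12 between the deletions, and none passed the adjusted threshold. At an unadjusted p under 0.05, 5 of 19 were lower in Dicer-deleted than in control cells, where 9.11% of all genes were, and 5 of 19 were higher in Drosha-deleted than in Dicer-deleted cells, where 3.24% were. The medians against control replicate 1 alone were 0.08 and −0.12. Ccl17, a chemokine of mature dendritic cells that draws Ccr4-bearing T cells, read 10.66, 11.88 and 10.69 in Drosha-deleted cells, 8.41, 7.06 and 8.34 in Dicer-deleted cells, and 8.21, 9.88 and 9.65 in control cells. Its Drosha-deleted samples lay above all others, by 3.14 over the Dicer-deleted mean (SE 0.54, 8.82-fold, adjusted p = 0.157) and by 1.83 over the control mean (adjusted p = 0.114). Without control replicates 2 and 3 its Drosha-deleted difference from control was 2.86, and its Dicer-deleted difference was −0.28, against −1.31 with all columns. Il4i1, a secreted amino acid oxidase, averaged 11.68 ± 0.68 in Drosha-deleted, 9.76 ± 0.73 in Dicer-deleted and 11.25 ± 0.43 in control cells (SD, n = 3 each), a Dicer-deleted difference from control of −1.49 (adjusted p = 0.163), and −1.05 without control replicates 2 and 3. Ccl22, the other chemokine for Ccr4, read 6.14 to 7.31 in Drosha-deleted, 5.42 to 5.59 in Dicer-deleted and 5.97 to 6.78 in control cells. It was well above background on 3 Drosha-deleted, 0 Dicer-deleted and 2 control arrays. Ccl22 was thus tested only through the group in which it was high, and it is 1 of the 5 genes in both counts above. It was at least 2.26-fold higher in Drosha-deleted than in Dicer-deleted cells (adjusted p = 0.371). Marcks, an actin-binding membrane protein, had means of 10.54, 9.90 and 10.31 in Drosha-deleted, Dicer-deleted and control cells. It differed from control by 0.23 with Drosha deleted and −0.40 with Dicer1 deleted, and without control replicates 2 and 3 by 0.07 and −0.56. Il12b was well above background on control replicate 2 alone.

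**Figure D4:**
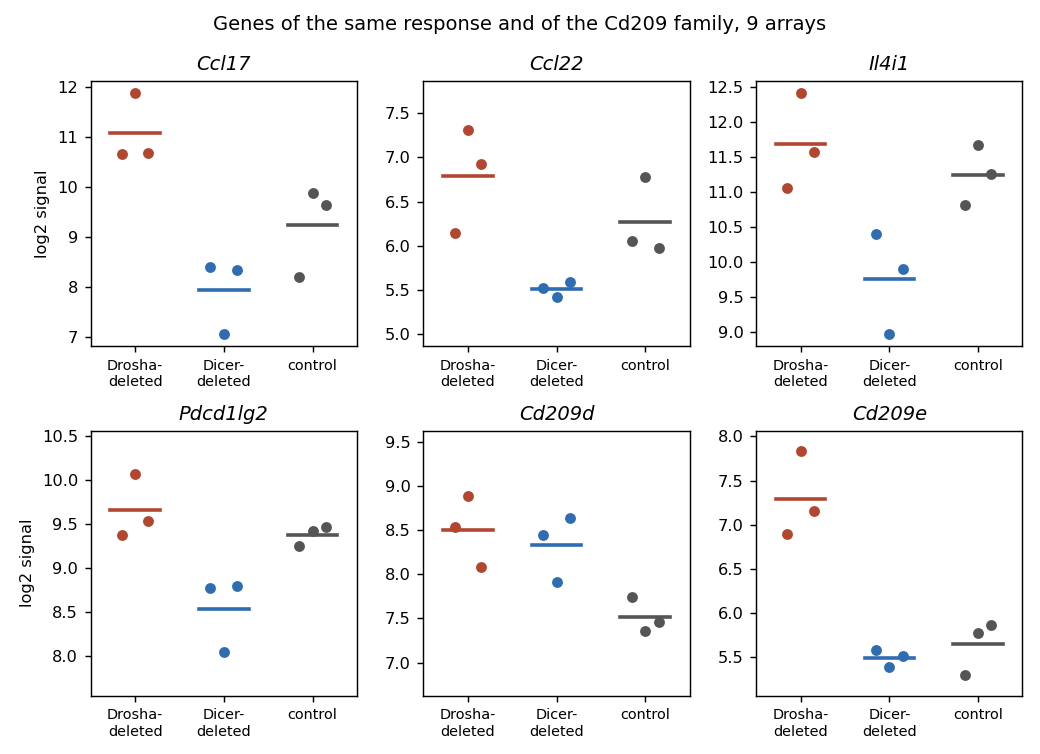
Log2 signal of Ccl17, Ccl22, Il4i1, Pdcd1lg2, Cd209d and Cd209e (vertical axes, each spanning its own range) in the 3 Drosha-deleted, 3 Dicer-deleted and 3 control samples, with bars for group means. Dicer-deleted points of Il4i1, Ccl22 and Pdcd1lg2 lie below all other points, Cd209e is high in Drosha-deleted samples alone, and Cd209d is high in both deletions.

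Across the 9 columns the members did not move as 1 block. Over their 28 pairs, Pearson's r was highest between Ccr7 and Cd83 (0.84), then between Cd40 and Cd209a (0.76), and lowest between Relb and Itgax (−0.27). Itgax was correlated with Cd83, Cd86 and Ccr7 at 0.71 to 0.72. The genes most like Cd83 were Ccl22 (r = 0.963) and Il4i1 (0.958), those most like Cd86 were Egr2 (0.975) and C1qa (0.970), and those most like Relb were Tnfaip3 (0.960) and Cxcl10 (0.954), out of 14025 named genes compared. Ccr7 was most like C9orf72 (0.940) and Tmem222 (0.924), Itgax most like Haus8 (0.963) and Ttpal (0.950), Cd80 most like Commd6 (0.966) and Snapc5 (0.958), Cd40 most like Afap1 (0.953) and Slc30a4 (0.952), and Cd209a most like Shld1 (0.971) and Lancl1 (0.957). The mean profile of the 8 members was most like Pdcd1lg2 (0.959), Anxa4 (0.949), Il4i1 (0.942), D13Ertd608e (0.939) and Sdc4 (0.938). These values describe 9 columns that share 3 groups and 1 normalisation, with Ccr7, Cd83, Il4i1, Ccl22 and Pdcd1lg2 all lowest in Dicer-deleted samples.

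Markers of dendritic cells and of monocytes were read beside the members. Of 17 tested dendritic cell lineage markers, 15 had a lower mean in Dicer-deleted than in control cells and 8 in Drosha-deleted cells, with medians of −0.41 and 0.09, and none passed the adjusted threshold. Without control replicates 2 and 3, 15 and 10 were lower, with medians of −0.36 and −0.20. The summed linear signal of the list was 152940 to 200754 in Drosha-deleted, 125802 to 171713 in Dicer-deleted and 175631 to 204622 in control cells. H2-Eb1, an MHC class II chain, differed from control by −0.86 with Drosha deleted and by −1.22 with Dicer1 deleted (adjusted p = 0.167 and 0.164), and Clec9a, a receptor of cross-presenting dendritic cells, by −0.49 and −0.87. Against control replicate 1 alone, H2-Eb1 differed by −0.46 and −0.82 and Clec9a by −0.26 and −0.64. Flt3, the cytokine receptor that drives dendritic cell development, averaged 11.55 ± 0.23 in Drosha-deleted, 10.64 ± 0.25 in Dicer-deleted and 10.81 ± 0.15 in control cells (SD, n = 3 each; adjusted p = 0.0914 for Drosha-deleted against control). Dpp4 had means of 7.38, 6.14 and 6.54 in the same order. It differed from control by 0.84 with Drosha deleted and −0.41 with Dicer1 deleted, and without control replicates 2 and 3 by 1.19 and −0.06. Xcr1 was well above background on 1 Drosha-deleted array, no Dicer-deleted array and 1 control array, whereas Zbtb46, a transcription factor of conventional dendritic cells, and Siglech, a marker of plasmacytoid dendritic cells, were so on all 9. Zbtb46 averaged 6.79 in Drosha-deleted, 6.99 in Dicer-deleted and 6.56 in control cells, where control replicates 1 to 3 read 7.08, 6.02 and 6.57. Siglech averaged 16.53, 16.41 and 16.43 in Drosha-deleted, Dicer-deleted and control cells. The groups of both genes overlapped. Of 10 tested monocyte and macrophage markers, 10 had a lower mean in Drosha-deleted and 9 in Dicer-deleted than in control cells, none past the adjusted threshold, with medians of −0.45 and −0.49 (−0.80 and −0.71 without control replicates 2 and 3) and summed linear signals of 13627 to 18879, 11695 to 24410 and 18367 to 26610 in Drosha-deleted, Dicer-deleted and control cells. Fcgr1, a high-affinity receptor of IgG, averaged 7.0 ± 0.29 in Drosha-deleted, 7.83 ± 0.07 in Dicer-deleted and 7.92 ± 0.10 in control cells (SD, n = 3 each), a Drosha-deleted difference from control of −0.92 (adjusted p = 0.0601). Msr1, a scavenger receptor of macrophages, differed from control by −1.42 and −0.76 in Drosha-deleted and Dicer-deleted cells. It was well above background on 2 Drosha-deleted, 2 Dicer-deleted and 3 control arrays. Msr1 was thus tested only through the group in which it was high, and it is among the markers counted as lower in both deletions. Of the 10 markers, 7 were well above background on every array. Cx3cr1 differed from control by −1.55 in Drosha-deleted cells (adjusted p = 0.123), and C1qa by −0.93 and −1.32 in Drosha-deleted and Dicer-deleted cells. The part of these cell types in the members' levels was not tested.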

How the data were processed

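RNA from 9 samples in 3 groups of 3 was hybridised to Agilent arrays of design 028005, in 1 colour, with probes placed on mm9. The deposited scanner files hold Cy3 intensity values made with Agilent Feature Extraction 10.7.3.1, protocol GE1_107_Sep09, per the file headers. The authors' deposited series values are on a log2 scale with nearly equal quantiles in every column, and the submitters' processing notes name limma; the sources used here give neither its version nor their background step. The members were read from those log2 values. Probes were named through accessions, current symbols or synonyms in a GRCm38.p6 table of names.

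Groups were compared with limma 3.58.1 (R 4.3.3), with a mean per group over all 9 samples, two-sided moderated tests on 9 degrees of freedom, and Benjamini-Hochberg adjustment over the 22991 genes or regions tested, at a threshold of 0.05. The number of arrays limits the precision. A fold against a group in which no array was well above background is a lower bound, set against the dimmest probes well above background. Same-numbered samples did not pair: their deviations from group means correlated at −0.28 to 0.24, and differently numbered ones at −0.30 to 0.28. Alternatives were the scanner values (log2 less the 75th percentile, or normexp with offset 50 and quantile normalisation), other filters, probes, weights, blocks and fits, and each sample left out. Recovery was tested on simulated data. The simulated arrays had independent noise and no split among controls, so they do not show how the fit behaves with these control columns.

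The members and lists were chosen with earlier results of these data known. Named are all members, at most 4 genes of each other list with the smallest F test p, all genes of the Ccr7 ligand, integrin partner and Cd209 lists, and the genes most like each member. Zbtb46, Siglech and Xcr1 were named as markers after their values were seen.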

Additional observations from a re-analysis of the deposited data

How the results depend on the processing

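Over 528 recomputed values (24 member differences under 22 alternatives), 27 changed sign and 9 passed the adjusted threshold. Many of these values could not turn in sign, because the setting left the compared group means as they were. Leaving out a control column did so between the deletions, and leaving out a deleted sample did so where its group was not compared. The replicate block, limma-trend and the changed filters left all member differences as they were. The slide block repeated the values found without control replicate 3. The sign held throughout for 3 of 8 members in Drosha-deleted against control, 6 of 8 in Dicer-deleted against control and 7 of 8 between the deletions. All these counts include the values that could not turn, so they do not measure robustness.

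For Drosha-deleted against control, where 39 genes were called, limma called 13 with scanner values, 1 with normexp, 10 with scanner values less control replicate 2, 25 with no filter, 11641 with array weights, 4 with the replicate block, 13 with the slide block, 5 with these groups alone and 4 to 7743 with 1 sample left out. For Dicer-deleted against control, where 4 were called, the counts were 0 with normexp (2036 at an unadjusted p under 0.05), 2 with no filter, 2 with the group-blind filter, 10032 with array weights, 0 with the replicate block (4531), 2 with limma-trend, 21 without control replicates 2 and 3, 19 for that in scanner values, 0 with these groups alone (4022) and 0 to 7023 with 1 sample left out. Between the deletions, where 13 were called, they were 4 with scanner values, 2 with normexp, 5 with scanner values less control replicate 2, 149 with array weights, 5 with the replicate block, 7 with the slide block, 20 with limma-trend, 5 with scanner values less control replicates 2 and 3, and 4 to 16 with 1 sample left out. Both upper ends against control came without control replicate 1.

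Members called were 2 for Drosha-deleted and 4 for Dicer-deleted against control, and 4 in the F test, with array weights. Those fits called 50.6%, 43.6% and 50.7% of all genes in the same order. With 1 sample left out, members called were 0 to 3 for Dicer-deleted against control and 0 to 2 in the F test. These upper ends came without control replicate 1, where 30.5% and 29.9% of all genes were called. The replicate block called 0 members, as did the fit without it.

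Signs turned for these members. Relb for Drosha-deleted against control was 0.06 in scanner values less control replicate 2, 0.07 with the slide block, 0.44 without control replicates 2 and 3 (0.45 in scanner values) and −0.30 to 0.36 with 1 sample left out. Relb for Dicer-deleted against control was 0.19 and 0.20 without those controls and −0.54 to 0.03 with 1 left out, and between the deletions −0.12 with array weights and −0.07 to 0.65. Itgax for Drosha-deleted against control was 0.07 in scanner values, 0.08 with normexp, 0.11 with array weights and −0.26 to 0.06 with 1 left out. In the same comparison Cd40 was −0.10 with array weights and −0.11 to 0.43, Ccr7 −0.43 to 0.14, and Cd86 0.001 with normexp. Cd209a for Dicer-deleted against control was 0.14 with the slide block, 0.08 without control replicates 2 and 3, and −0.56 to 0.17 with 1 left out. Leaving out both control replicates was chosen after the data were seen. Scanner values moved the median of all genes by 0.276 and 0.293 against control. Of 9 arrays, 8 had 54.2% to 62.3% of spots well above background, and control replicate 2 had 93.2%, which limits Ly75, Cd40 and Cd209a. The cause of these changes was not tested.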

Other observations

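Other blood lineages were represented in the cultures and were compared by the same lists. None of the 8 neutrophil markers passed the adjusted threshold, and all 8 had a higher mean in Drosha-deleted than in control cells, with a median of 0.37, against −0.04 for Dicer-deleted cells. Without control replicates 2 and 3, 7 of the 8 were lower in Drosha-deleted and all 8 in Dicer-deleted cells, with medians of −0.13 and −0.66. Their summed linear signal was 846278 to 1165716 in Drosha-deleted, 382863 to 1066381 in Dicer-deleted and 549785 to 1075959 in control cells. The 4 megakaryocyte markers had medians of −0.15 and −0.58 for Drosha-deleted and Dicer-deleted cells against control, with summed signals of 318802 to 384426, 270110 to 318742 and 381676 to 424002. The 5 eosinophil markers had medians of 0.02 and −0.38, the 6 mast cell and basophil markers −0.16 and −0.16, and the 9 stem and progenitor markers −0.05 and 0.03, with no gene past the threshold. With control replicate 1 alone the medians were −0.41 and −0.74 for megakaryocyte, −0.05 and −0.48 for eosinophil, and −0.13 and −0.42 for mast cell and basophil markers. For stem and progenitor markers they were then 0.02 and −0.05.

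Most of the listed lymphoid markers were too dim to be tested. Of 8 B cell markers 3 were tested, with Ms4a1 and Pax5 well above background on control replicate 2 alone, and of 8 T and NK cell markers 3 were tested, with Cd3g, Cd8a and Ncr1 so on that array alone. Cd4 read 12.53 to 12.63 in Drosha-deleted, 12.47 to 12.69 in Dicer-deleted and 10.43 to 12.24 in control cells, and its differences from control were 1.46 and 1.43 with all columns and 0.34 and 0.31 without control replicates 2 and 3. Cd3e read 10.68 to 11.20 in Drosha-deleted, 10.41 to 10.71 in Dicer-deleted and 9.62 to 10.74 in control cells. Its differences from control were 0.81 and 0.49 with all columns, and 0.12 and −0.20 without control replicates 2 and 3. Lck read 10.46 to 10.51, 10.45 to 10.79 and 10.56 to 10.77 in Drosha-deleted, Dicer-deleted and control cells. The B cell marker Cd79b read 11.34 to 12.01, 11.13 to 11.63 and 11.18 to 11.36.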
